A study of Homo sapiens with 5 samples.

Results

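NOTCH receptors, their ligands and the HES and HEY targets were examined in LNCaP cells, an androgen-sensitive human prostate cancer line, given a hairpin against RB1, the gene of the retinoblastoma protein RB. The list held 10 genes, the receptors NOTCH1 to NOTCH4, the ligands JAG1, JAG2, DLL1 and DLL3, and the target genes HES1 and HEY1. Of these, 9 had a named probe set and were measured, among 14812 genes on the array with 1 probe set per gene. HES1 carried no named probe set and is not analysed here, so HEY1 stands alone for the listed targets. Each measured member had exactly 1 named probe set, so the rule that takes the brightest probe set of a gene on its mean over all arrays had no choice to make among them. The members were chosen with earlier results of these data in view.

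The groups were 3 arrays of LNCaP cells carrying a retroviral hairpin against RB1 (shRB) and 2 arrays of LNCaP cells carrying a scrambled hairpin (shControl). Cells of both groups were selected with puromycin, received 10 Gy of ionizing radiation and gave total RNA 24 h afterwards, so every array is of irradiated cells. The labels give no number of cultures, clones or hairpin sequences behind each group, so the p-values measure the spread between these arrays, which may be technical. Values are deposited intensities on a log2 scale, on which the lowest value of every array lay just above 4.

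NOTCH receptors are membrane proteins that are cut when a Jagged or Delta ligand on a neighbouring cell pulls on them. The freed intracellular part enters the nucleus, joins the DNA-binding protein RBPJ and a mastermind coactivator, and switches on genes of the HES and HEY families, whose products are basic helix-loop-helix repressors. In epithelia such as the prostate the pathway takes part in the choice between progenitor, luminal and basal fates, and HES proteins hold back neurogenic factors.

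RB1, the target of the hairpin, had log2 intensities of 5.16, 5.28 and 5.20 in shRB and 5.81 and 5.70 in shControl, a difference of -0.54 (limma adjusted p = 0.0967) that did not pass the threshold of 0.05 over all genes. The groups did not overlap. The array medians of the deposited intensities ranged from 27.38 to 27.95 in shRB and from 26.65 to 28.06 in shControl. The shControl arrays were less alike than the shRB arrays, correlating at 0.9665 over all genes against 0.983 to 0.9861. With shRB replicates 1, 2 and 3, shControl replicate 1 correlated at 0.9686, 0.9701 and 0.962, and shControl replicate 2 at 0.9648, 0.9661 and 0.9548. On shControl replicate 1, 4.56% of probe sets lay within 0.01 of 16, against 1.98% to 2.73% on the others. Of the 11 luminal prostate markers listed, 7 were measured and none passed, with KLK3, the gene of prostate-specific antigen, at 10.06 to 10.09 in shRB and 10.09 to 10.17 in shControl. Markers of other cells were few and mostly dim. The summed intensity of 5 endothelial markers was 145 to 170 in shRB and 172 to 178 in shControl, and that of 4 basal markers 111 to 134 in shRB and 118 to 135 in shControl. The 2 blood markers measured summed to 145 to 168 in shRB and 108 to 167 in shControl, and the 2 stromal markers to 37.9 to 42.3 in shRB and 41.7 to 42.7 in shControl. KDR, a defining endothelial receptor, lay between 4.04 and 4.56 on all arrays, and the stromal genes DCN and LUM between 4.15 and 4.64. CD68, of the blood list, was brighter, at 6.95 to 7.19 in shRB and 6.46 and 7.21 in shControl (difference 0.22, limma adjusted p = 0.613). Of the 5 endothelial markers, 2 had an unadjusted p under 0.05, in opposite directions. VWF had log2 intensities of 5.13 to 5.94 in shRB and 6.12 to 6.41 in shControl (difference -0.65, limma adjusted p = 0.164), and EMCN 4.57 to 4.90 in shRB and 4.19 to 4.23 in shControl (0.56, adjusted p = 0.106). Of the 4 basal markers, 1 had an unadjusted p under 0.05. This was KRT15, at 4.61 to 4.87 in shRB and 5.13 to 5.23 in shControl (-0.40, limma adjusted p = 0.206). None of these markers passed the test over all genes, and their part in the results below was not tested.

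The promoters of NOTCH2 and JAG1 are shown first, because these genes had the largest positive differences of the 9. Each is the stretch of 250 bases before the RefSeq start (build GRCh38.p14), read in the direction of the gene, and capitals mark a match to an E2F site, the element bound by the transcription factors that RB restrains.
NOTCH2, chr1:120069663-120069912, minus strand: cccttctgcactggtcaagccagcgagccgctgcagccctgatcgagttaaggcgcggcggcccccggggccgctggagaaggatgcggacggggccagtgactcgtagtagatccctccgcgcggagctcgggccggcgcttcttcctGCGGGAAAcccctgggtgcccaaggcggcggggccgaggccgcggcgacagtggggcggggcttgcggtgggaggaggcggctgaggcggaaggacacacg
JAG1, chr20:10674000-10674249, minus strand: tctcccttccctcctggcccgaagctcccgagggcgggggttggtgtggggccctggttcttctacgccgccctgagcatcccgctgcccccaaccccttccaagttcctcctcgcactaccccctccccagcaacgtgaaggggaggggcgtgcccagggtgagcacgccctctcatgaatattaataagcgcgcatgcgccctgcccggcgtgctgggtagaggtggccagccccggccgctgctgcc
The E2F search used the letters TTTCCCGC, TTTCGCGC, TTTGCCGC and TTTGGCGC on both strands. NOTCH2 held 1 match, written GCGGGAAA on the gene's strand, from 101 to 94 bases before the start. Such a match was present in 2.79% of the 27305 promoter windows of this length. Bases G and C made up 72.8% of the NOTCH2 window, against a median of 58% over all windows. How often windows as rich in G and C hold a match was not counted, so 2.79% is not a like background. The windows of NOTCH1, NOTCH3, NOTCH4, JAG1 and JAG2 held none, and those of DLL1, DLL3 and HEY1 were not used here. A search for the RBPJ core TGGGAA on both strands, present in 21.1% of all windows, found no match in any of the same 6 promoters, NOTCH2 included. No motif match overlapped another. A match describes letters in the window only, and binding was not measured.

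NOTCH2 was the member that passed the test, and it rose in shRB cells. Its log2 intensity was 8.16, 8.40 and 8.43 in shRB and 7.44 and 7.49 in shControl, so the lowest shRB value exceeded the highest shControl value. Averaged by group, NOTCH2 stood at 8.33 ± 0.15 (SD, n = 3) in shRB against 7.47 ± 0.03 (SD, n = 2) in shControl. On the log2 scale it was higher by 0.87 (SE 0.15, 95% interval 0.53 to 1.20, limma adjusted p = 0.0257), or 1.82-fold as deposited. Once 16, the floor of the deposited values, is removed from each linear intensity, the ratio of the shRB mean to the shControl mean was 1.91. The 1.82 was taken from the log2 difference instead, so these values differ in more than the constant. Among all 14812 genes NOTCH2 ranked 69th by size of increase. In the same fit 1.07% of all genes passed, 0.695% as higher and 0.378% as lower, beside 1 of the 9 members. The call did not hold without any 1 shRB array, with differences of 0.95 (adjusted p = 0.0963) without replicate 1, 0.83 (0.159) without replicate 2 and 0.82 (0.196) without replicate 3. It was also lost, at a log2 difference of 0.91 (adjusted p = 0.147), with 16 subtracted and 4 added before the logarithm. It held without shControl replicate 1 (0.84, adjusted p = 0.0418) and without shControl replicate 2 (0.89, adjusted p = 0.0434).

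NOTCH2 shares near-identical sequence with the NOTCH2NL genes, human-specific partial copies of its first exons that are known to act on NOTCH signalling in cortical progenitors. The probe set of NOTCH2NLA stood at 8.32, 8.51 and 8.35 in shRB and 7.84 and 7.60 in shControl. The groups did not overlap, and the difference of 0.68 did not pass (limma adjusted p = 0.066). Probes of such copies can bind each other's transcripts, so how the signal divides between NOTCH2 and NOTCH2NLA is uncertain in these values.

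**Figure D1:**
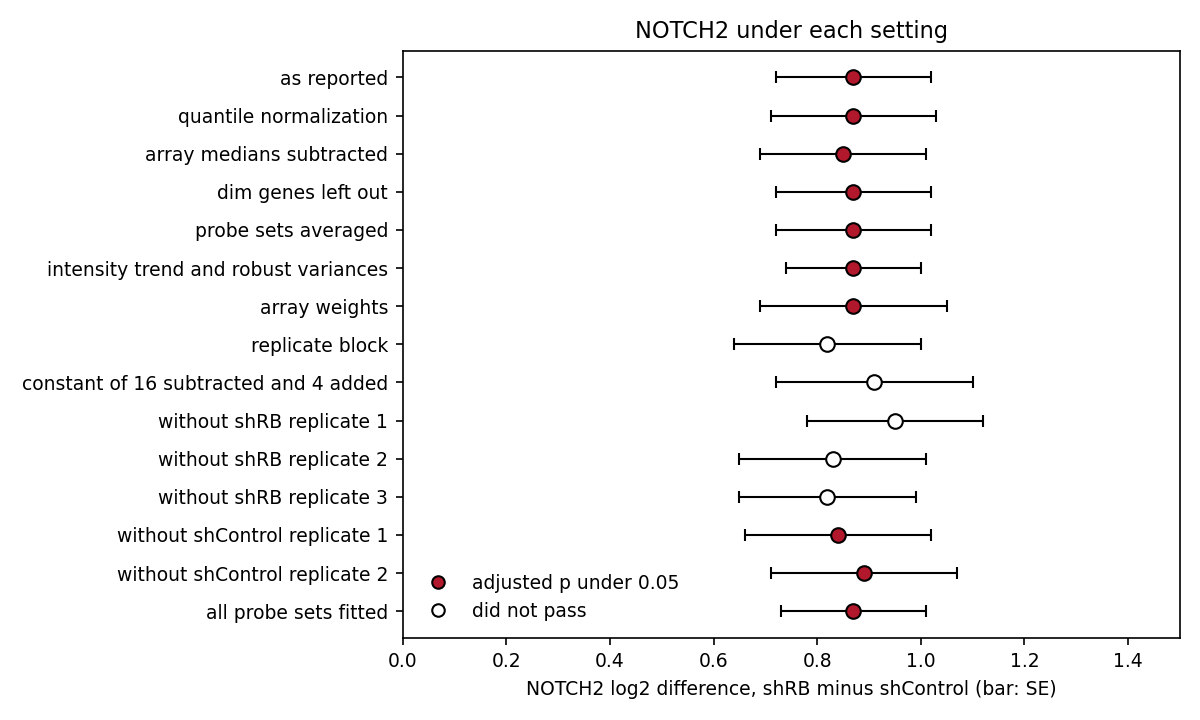
The NOTCH2 log2 difference, shRB minus shControl (x axis), is drawn for the reported fit and each alternative setting (y axis), with bars for the standard error and filled points where the adjusted p was under 0.05. The difference lay between 0.82 and 0.95 in all of them. The call was lost without any 1 shRB array, with the replicate block and with the constant subtracted. The replicate block gives the same difference as the fit without shRB replicate 3. Dim genes left out, averaged probe sets, trend and robust variances and all probe sets fitted cannot change the difference.

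The other receptors did not pass. NOTCH1, the receptor best known from T cell leukaemia, had log2 intensities of 5.85, 5.36 and 5.41 in shRB and 5.17 and 5.30 in shControl. The shRB arrays all lay above the shControl arrays, but the gap was only that between 5.36 and 5.30, and replicate 1 of shRB stood apart from its group. The difference was 0.30 (SE 0.18, 95% interval -0.09 to 0.69, limma adjusted p = 0.398), and 0.15 (adjusted p = 0.735) without that replicate. NOTCH3, a receptor of vascular smooth muscle, had 4.45, 5.12 and 5.09 in shRB and 4.73 and 4.87 in shControl, so the shRB arrays lay on both sides of the shControl arrays. Its difference of 0.09 (95% interval -0.36 to 0.54) did not pass (limma adjusted p = 0.851). NOTCH4, a receptor mainly of endothelium, had 4.98, 5.01 and 4.95 in shRB and 5.38 and 5.07 in shControl. The shRB values lay close together and below both shControl values, which were further apart. The difference was -0.24 (95% interval -0.58 to 0.09, limma adjusted p = 0.436), moving to -0.09 (adjusted p = 0.786) without shControl replicate 1 and -0.40 (0.212) without shControl replicate 2. NOTCH3 and NOTCH4 lay near the floor of the scale, with 3 and 2 of the 5 arrays under a log2 intensity of 5, where an added constant compresses differences. Whether the NOTCH2 difference exceeds those of the other receptors was not tested.

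**Figure D2:**
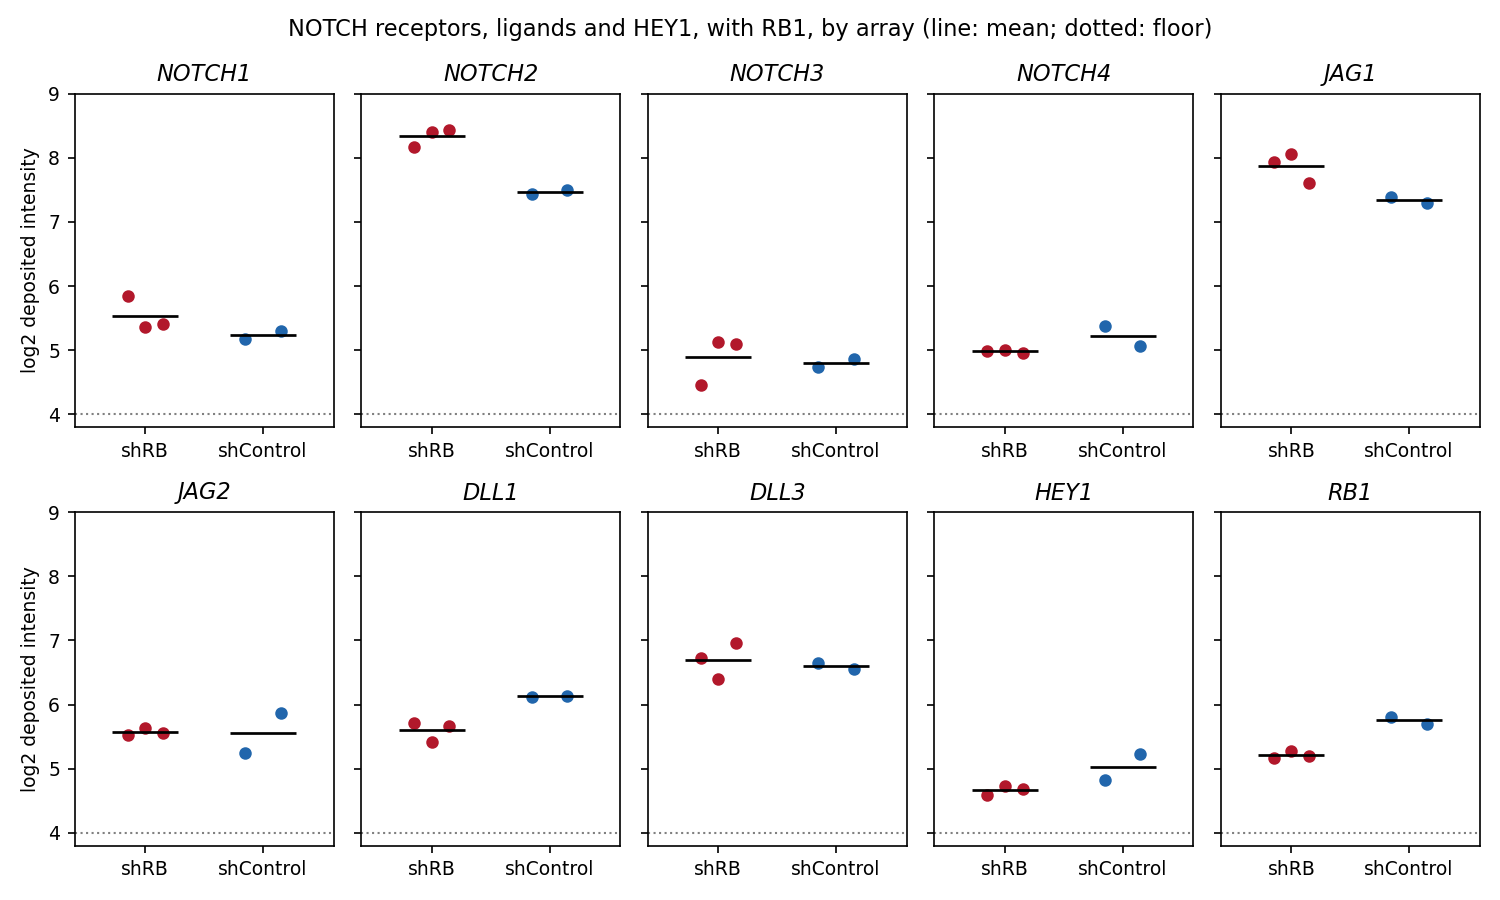
Log2 deposited intensity (y axis) of the 9 measured members and of RB1, with 1 point per array, shRB left of shControl, a line at each group's mean and a dotted line at the floor of 4. NOTCH2 and JAG1 lie higher in shRB, at 8.33 against 7.47 and 7.87 against 7.34 on average, while DLL1 and RB1 lie lower in shRB.

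Of the ligands, JAG1 and DLL1 had differences of nearly equal size and opposite sign, and neither passed. JAG1, a ligand mutated in Alagille syndrome as NOTCH2 can also be, had log2 intensities of 7.94, 8.06 and 7.61 in shRB and 7.39 and 7.29 in shControl. The shRB values all exceeded the shControl values, with replicate 3 of shRB the nearest to them. JAG1 averaged 7.87 ± 0.23 in shRB against 7.34 ± 0.07 in shControl (SD, n = 3 and n = 2), a difference of 0.53 (SE 0.17, 95% interval 0.16 to 0.90, limma adjusted p = 0.138), or 1.45-fold as deposited. DLL1, a Delta ligand of somite formation and neural progenitors, had 5.71, 5.41 and 5.67 in shRB and 6.12 and 6.13 in shControl. Here the shRB values were all below the shControl values, which were nearly equal. DLL1 averaged 5.60 ± 0.16 in shRB (SD, n = 3) against 6.13 in shControl (n = 2), a difference of -0.53 (SE 0.15, 95% interval -0.87 to -0.19, limma adjusted p = 0.112). With 16 removed in the same way, the mean linear intensity of DLL1 in shRB was 0.604 of that in shControl. The fold as deposited was 0.692, taken from the log2 difference, so these values differ in more than the constant.

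JAG2 and DLL3 differed by less than the spread between arrays. JAG2, the second Jagged ligand, had 5.52, 5.63 and 5.55 in shRB and 5.25 and 5.86 in shControl. The shRB arrays lay close together between the 2 shControl arrays, and the difference was 0.01 (95% interval -0.39 to 0.42, limma adjusted p = 0.978). DLL3, a divergent Delta protein that stays inside the cell, can inhibit NOTCH signalling and marks neuroendocrine cancers, had 6.72, 6.40 and 6.96 in shRB and 6.65 and 6.56 in shControl. Its shRB arrays spread on both sides of the shControl arrays, with a difference of 0.09 (95% interval -0.30 to 0.48, limma adjusted p = 0.829). Differences up to the ends of these intervals are not excluded.

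HEY1, a repressor induced by NOTCH, had log2 intensities of 4.59, 4.73 and 4.68 in shRB and 4.82 and 5.23 in shControl. The shRB values were close together and below both shControl values, of which replicate 2 was the higher by a wide margin. HEY1 averaged 4.67 ± 0.07 in shRB against 5.02 ± 0.29 in shControl (SD, n = 3 and n = 2). The difference of -0.35 (SE 0.16, 95% interval -0.72 to 0.01) did not pass (limma adjusted p = 0.283). It was -0.56 (adjusted p = 0.0881) without shControl replicate 1, -0.15 (0.654) without shControl replicate 2 and -0.60 (0.31) with 16 subtracted and 4 added. Of its 5 arrays, 4 lay under a log2 intensity of 5, so the level is close to the floor. In bulk RNA such as this, fewer cells expressing a gene and less RNA per cell cannot be told apart.

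**Figure D3:**
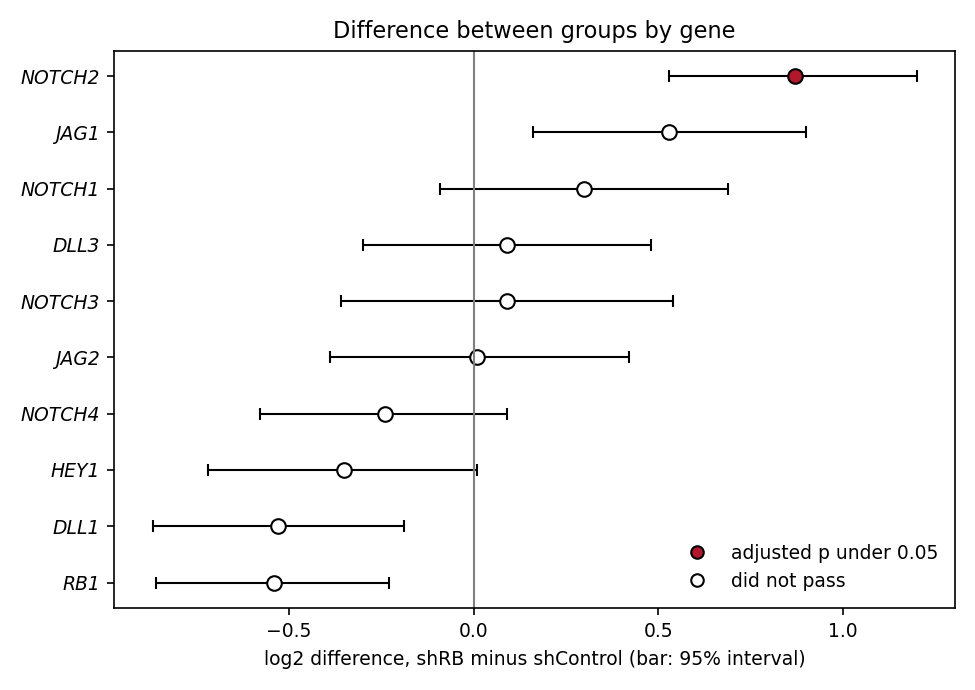
Log2 difference, shRB minus shControl (x axis), for the 9 measured members and RB1 (y axis, ordered by size), with 95% intervals from limma and a filled point where the adjusted p was under 0.05. The intervals of NOTCH2, JAG1, DLL1 and RB1 do not reach 0, and NOTCH2 alone among them passed after adjustment over all genes.

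Over the 9 members, 6 differences were positive and 3 negative, with a median of 0.09, beside a median of 0.02 over all genes tested. The arrays of the groups did not overlap for 6 of the 9, shRB lying above for NOTCH1, NOTCH2 and JAG1 and below for NOTCH4, DLL1 and HEY1. Such separation was common on these arrays, at 36.0% of all genes, 20.6% with shRB above and 15.4% with shRB below. An unadjusted p under 0.05 was reached by 3 members, NOTCH2, JAG1 and DLL1, and by 18.1% of all genes.

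Around these genes, 65 of 78 further pathway genes were measured, grouped by role. None passed over all genes (limma), against 10 at an unadjusted p under 0.05, which is 15.4% of them. Differences were positive for 24 and negative for 41, with a median of -0.06. Over all 14812 genes, 7975 differences were positive and 6837 negative, with a median of 0.02. Of all genes, 18.1% reached that unadjusted p and 1.07% passed. Of the 65, 16 lay under a log2 intensity of 5 on every array.

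In the nuclear complex (10 measured, 3 positive, 7 negative, median -0.03), the largest differences went in opposite directions and did not pass. RBPJ, the DNA-binding partner of the cleaved receptor, had log2 intensities of 7.59, 7.62 and 7.51 in shRB and 7.97 and 8.03 in shControl. The groups were tight and did not overlap, with a difference of -0.43 (95% interval -0.75 to -0.12, limma adjusted p = 0.156). KAT2B, an acetyltransferase recruited as a coactivator, had 6.75, 6.36 and 6.38 in shRB and 5.93 and 5.59 in shControl. All shRB arrays lay above the shControl arrays, with a difference of 0.74 (95% interval 0.35 to 1.13, limma adjusted p = 0.0744). KAT2B passed without shControl replicate 1 (0.91, adjusted p = 0.0423), with dim genes left out (0.74, adjusted p = 0.0323) and with an intensity trend and robust variances (0.74, adjusted p = 0.0308). It did not pass in the other 11 alternatives, with adjusted p-values of up to 0.252, among them 0.57 (adjusted p = 0.156) without shControl replicate 2 and 0.61 (0.249) without shRB replicate 1. The mastermind coactivator MAML1 differed by 0.29 (adjusted p = 0.312) and the acetyltransferase EP300 by -0.23 (adjusted p = 0.416).

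Receptor cleavage genes, those of the convertase FURIN, the sheddases and the gamma-secretase complex, numbered 8 measured of 9. Of these, 5 were positive and 3 negative, with a median of 0.17. ADAM10, the main sheddase of ligand-bound NOTCH, had log2 intensities of 8.42, 8.26 and 8.10 in shRB and 8.64 and 8.68 in shControl. The shRB arrays all lay below, with a difference of -0.40 (limma adjusted p = 0.211) that did not pass. Among the gamma-secretase subunits, PSEN2 differed by 0.32 (adjusted p = 0.327), APH1A by -0.27 (0.349) and PSENEN by 0.25 (0.47).

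Genes that internalise ligands (6 measured, 3 positive, 3 negative, median 0.08) included the adaptor EPN1 at -0.36 (limma adjusted p = 0.212) and the ubiquitin ligases MIB2 at 0.44 (0.222) and MIB1 at -0.35 (0.396). The fringe and glycosyltransferase genes, whose enzymes add sugars to NOTCH receptors, had 1 positive and 4 negative differences (5 measured, median -0.10). MFNG stood at -0.37 (limma adjusted p = 0.273) and POGLUT1 at 0.23 (0.506). Among the receptor turnover genes (9 of 11 measured, 4 positive, 5 negative, median -0.06), the endocytic adaptor NUMBL differed by 0.46 (adjusted p = 0.157) and DTX3, of the Deltex ubiquitin ligase family, by 0.46 (0.212), while DTX3L (-0.21, 0.545) and DTX4 (-0.18, 0.549) were negative. None of these passed. MFNG (4.19 to 4.84) and DTX3 (4.13 to 4.99) lay under a log2 intensity of 5 on every array, where an added constant compresses differences. With 16 subtracted and 4 added, DTX3 stood at 1.01, MFNG at -0.75 and NUMBL at 0.63, and these did not pass either.

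The further ligands (7 measured, 1 positive, 6 negative, median -0.15) were dim, with log2 intensities from 4.15 to 5.50. DLK1, an atypical ligand of fetal and endocrine tissue, differed by -0.32 (limma adjusted p = 0.323), CCN3 by -0.26 (0.443), CNTN1 by -0.25 (0.438) and DLK2 by -0.15 (0.678). The corepressor list had 6 of 14 measured, 3 positive and 3 negative, with a median of -0.04. Its histone deacetylases HDAC1 (-0.22, adjusted p = 0.504) and HDAC2 (-0.16, 0.635) did not pass. HDAC2 had a second, dimmer probe set, at a mean log2 intensity of 5.18, with a difference of 0.50, so the sets disagreed in sign.

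The further HES and HEY genes with NRARP, a feedback inhibitor of NOTCH, had 4 positive and 4 negative differences (8 measured, median 0.10). HEY2, a partner of HEY1 in heart and vessels, had log2 intensities of 4.26, 4.32 and 4.21 in shRB and 4.47 and 5.08 in shControl. The shRB arrays lay below both shControl arrays, and the difference of -0.51 did not pass (limma adjusted p = 0.181). It passed without shControl replicate 1 (-0.82, adjusted p = 0.0372), which leaves the higher shControl array as the only one, and stood at -0.21 (adjusted p = 0.503) without shControl replicate 2. With 16 subtracted and 4 added it was -1.06 (adjusted p = 0.227). HEYL differed by -0.34 (limma adjusted p = 0.283), so HEY1, HEY2 and HEYL all had negative differences, at dim levels, and none passed. Each kept that sign under the alternatives run, which for these genes did not include the fit with dim genes left out. Averaged probe sets, trend and robust variances and all probe sets fitted could not change these differences. The replicate block repeats the fit without shRB replicate 3. HEY1 and HEY2 shrank to -0.15 and -0.21 without shControl replicate 2, and HEYL to -0.20 without shControl replicate 1. NRARP, the brightest gene of this list, had 6.96, 7.08 and 7.04 in shRB and 6.86 and 6.63 in shControl. Its difference of 0.28 was positive and did not pass (limma adjusted p = 0.35). HES4 stood at 6.16 in shRB and 5.76 in shControl on average (0.40, adjusted p = 0.243) and HES6 at 5.80 in shRB and 5.45 in shControl (0.35, 0.324).

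Neurogenic factors that HES proteins repress in development had 0 positive and 6 negative differences (6 of 8 measured, median -0.13), and 0 passed (limma), with 0 at an unadjusted p under 0.05. NEUROG3 (-0.29, adjusted p = 0.375), INSM1 (-0.14, 0.742), ASCL2 (-0.13, 0.685) and NEUROG1 (-0.13, 0.719) are among them. The 6 genes lay between the floor of 4 and 5.55, with 4 of them under 5 on every array.

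**Figure D4:**
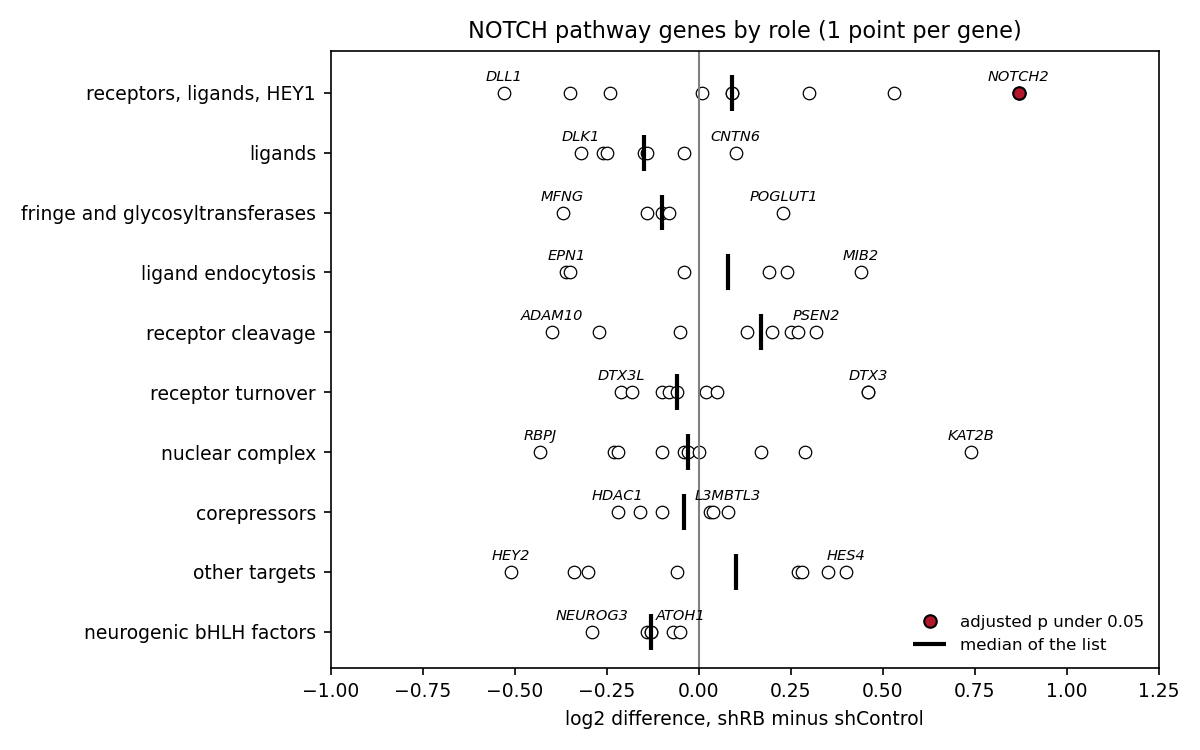
Log2 difference, shRB minus shControl (x axis), of each measured gene, by role (y axis), with the members in the top row, a bar at each list's median and a filled point where the adjusted p was under 0.05. NOTCH2 at 0.87 is the filled point, and the list medians lie between -0.15 and 0.17.

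The genes most like NOTCH2 and DLL1, the members with the smallest p, were found by the root mean square distance of log2 values centred on each gene's mean over the 5 arrays. The measure uses the same arrays as the comparison, so it is a description. For NOTCH2 they were ZNF500 (distance 0.041), TMEM144 (0.059) and EEF2K (0.060), and 15 genes lay within 0.1. For DLL1 they were GPR160 (0.034), PPP2R2B-IT1 (0.040) and LDHAL6A (0.044), with 75 genes within 0.1.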

How the data were processed

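Per the labels' protocols, RNA was converted to cDNA and labelled with biotin for arrays of 1 colour. The deposited values are linear intensities, 1 per probe set and array. How the authors summarised and normalized them, and with which software and build, is not given in the sources used here. The lowest intensity of every array lay just above 16, as an added constant would give, which compresses differences of dim genes. Precision is limited by the 5 arrays.

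Of 44607 probe sets, 15835 had 1 gene symbol, 0 had several and 28772 were unnamed. Symbols were updated by Entrez identifier with the RefSeq table of GRCh38.p14, and all 15835 matched. The brightest probe set by mean log2 was kept for the 651 genes with several. Intensities were log2-transformed without further normalization and fitted by group alone in limma 3.58.1 (R 4.3.3, lmFit and eBayes). Tests were two-sided, and p-values were adjusted by Benjamini-Hochberg over 14812 genes at a threshold of 0.05. The fit was tested on simulated data with independent noise and few shifted genes. It called 24.4% of genes shifted by 0.5 in log2 and 98.9% of those shifted by 1. Shifts of 0.5 were thus mostly missed there.

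Named were all members, RB1, markers, up to 4 genes per pathway list with the smallest p and the 3 genes nearest in pattern to the 2 members with the smallest p. NOTCH2NLA and NRARP were chosen after their values were seen, and neither was followed over the alternatives. Members and lists were chosen with earlier results of these data known. Alternatives were quantile normalization, median subtraction, dim genes left out, averaged probe sets, trend and robust variances, array weights, the replicate block, removal of 16 with 4 added, all probe sets fitted and leaving out each array.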

Additional observations from a re-analysis of the deposited data

How the results depend on the processing

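NOTCH2 was higher in shRB under all 14 alternatives, with log2 differences of 0.82 to 0.95 and adjusted p-values (limma) of 0.000482 to 0.196. Some alternatives could not move the difference from 0.87, only its p-value. These were dim genes left out, averaged probe sets, trend and robust variances, and all probe sets fitted. The replicate block repeats the difference without shRB replicate 3, so the alternatives are not 14 separate checks of direction. Leaving out 1 array at a time gave between 0 and 1 member past the threshold, 0 without any 1 shRB array, and 0 were called with the constant of 16 subtracted and 4 added. Among the pathway genes 0 to 2 passed without 1 array (KAT2B and HEY2 without shControl replicate 1), 1 (KAT2B) with dim genes left out and 1 (KAT2B) with trend and robust variances. RB1 passed with dim genes left out (-0.54, adjusted p = 0.0489) and ranged from -0.60 to -0.49 without 1 array. In fits without a shControl array the lone remaining one is assumed to vary like the shRB arrays.

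Over all genes, 159 passed, 64.8% of them higher. The count became 385 with dim genes left out, 426 with trend and robust variances, 88 with array weights and 13 with the constant subtracted, and 22 to 411 without 1 array (28, 22 and 22 without shRB replicate 1, 2 or 3, and 411 and 242 without shControl replicate 1 or 2). The share of higher calls was 30.8% with the constant subtracted, 33.3% with the replicate block and 42.9%, 40.9% and 36.4% without shRB replicate 1, 2 or 3. The cause was not tested.

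Whether equal replicate numbers mark pairs is not given. Same-numbered deviations correlated at -0.02 for replicate 1 and 0.05 for replicate 2. As 2 shControl deviations mirror each other, this cannot exclude pairing. With the replicate block 24 genes and 0 members passed, and NOTCH2 stood at 0.82 (limma adjusted p = 0.184). NOTCH3 turned to -0.01 and DLL3 to -0.04 in that fit. No shControl array is numbered 3, so the block fit gives the differences without shRB replicate 3, and the 2 fits are not separate evidence.

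Other differences that did not pass also turned sign. NOTCH3 ranged from -0.03 to 0.31, JAG2 from -0.29 to 0.32 and DLL3 from -0.04 to 0.24 without 1 array. JAG2 was -0.03 after quantile normalization and -0.00062 after median subtraction. Without 1 array DLK2 ranged from -0.37 to 0.07, NEUROG1 from -0.38 to 0.11 and INSM1 from -0.44 to 0.17. HDAC2 stood at 0.17 with its probe sets averaged, which is the mean of their differences of -0.16 and 0.50. The range of JAG2 follows its shControl values of 5.25 and 5.86, which lie on either side of the shRB arrays. Why these arrays or probe sets differ was not tested.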
